A study of Homo sapiens with 6 samples.

Results

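The semaphorins, their plexin receptors and the neuropilin co-receptors were examined in a polysome sequencing experiment on OSRC-2 cells, a clear cell renal cell carcinoma (ccRCC) line. Members were the genes of a single deposited table whose symbol was that of a class 3 to class 7 semaphorin, a plexin or a neuropilin, which gave 30 of 30345 genes (19 semaphorins, 9 plexins and 2 neuropilins); SEMA3D was not analysed here. Both groups of 3 libraries came from the same line, in which loss of VHL leaves the transcription factor HIF2 active. A single line was used, with no second line or tissue. One group received 2 µM PT2399, an inhibitor of HIF2, and the other vehicle, each for 72 h, and the labels number the libraries as biological replicates. RNA was read from the pooled gradient fractions heavier than the monosome peak. A change in this RNA can come from the amount of transcript or from its loading with ribosomes, and these cannot be told apart here.

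Semaphorins are ligands that share a sema domain and were first known for steering growing axons. Class 3 proteins are secreted, classes 4 to 6 span the membrane and class 7 is held by a lipid anchor. Plexins are their receptors, with an intracellular domain that switches off small GTPases of the R-Ras and Rap kind. Neuropilins lack signalling of that kind and present class 3 semaphorins to plexins, and they also bind members of the VEGF family. In tumours the system is known for effects on vessel growth and cell migration.

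Values for single libraries were not at hand, so each gene has 1 mean normalized count over all 6 libraries and 1 log2 fold change of PT2399 over vehicle with its standard error (SE), both from the authors' deposited DESeq2 table. The level of each group given below is that implied by this mean and this fold change, and it has no spread of its own. Adjusted p-values are those of the two-sided Wald test in that DESeq2 table, and genes counted as called where that value did not exceed 0.05. Relative depth was similar between libraries, with size factors from 0.78 to 1.19. PTHLH, the hormone gene that the study centred on, fell by 1.99 (SE 0.06) on the log2 scale. All 8 markers of renal carcinoma and renal epithelium were tested, with means from 101.2 (NDUFA4L2) to 170524.4 (VIM) normalized counts. PAX8, a renal transcription factor, had 17472.3 and was not called. Of the 8, EPAS1, CA9 and PAX2 were called lower, at 21.9%, 41.6% and 82.0% of vehicle. KRT8 was called higher at 119.4%, and 4 were not called. The 4 endothelial markers had means of 0.51 to 13.2, all below the filter on low counts, and PTPRC, the pan-leukocyte marker, had 1.85. Marker symbols outside the renal list were not all low: CD68, a lysosomal protein used to mark macrophages, had 3555 and was not called. ITGAM, also on the leukocyte list, had 62.7 and was not called, while CD3E on that list had no value. COL1A1, used to mark fibroblasts, had 209.3 and was not called, while PDGFRB and DCN, also on the fibroblast list, had 19.5 and 1.48. The 3 neuron and glia markers had 1.69 to 19.1.

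PT2399 lowered more semaphorins than it raised: of 18 tested, 8 (44.4%) were lower and 1 (5.56%) was higher. Of the 8 tested plexins and neuropilins, 2 (25%) were lower and 1 (12.5%) was higher. The median log2 fold change was -0.24 for the semaphorins and 0.01 for these receptors. Of 26 members with an adjusted p, 10 were lower, 2 were higher and 14 were not called, against 11.7% lower and 11.3% higher over all 15634 tested genes. The members' shares were 38.5% lower and 7.69% higher, and 46.2% of them were called in either direction, against 23.0% of all tested genes. The median log2 fold change was -0.18 over the tested members and 0.00 over all tested genes. Calls were more frequent among abundant genes, and 22 members had a mean of at least 100 normalized counts, where 45.5% were lower against 14.1% of all genes at that level, and 9.09% were higher against 13.7%. SEMA5B and SEMA6A were called and moved by 1 or more on the log2 scale. They are 2 of the 26 tested members (7.69%), against 320 of 15634 tested genes (2.05%). At a mean of at least 100 normalized counts they are 2 of 22 members, against 159 of 12219 genes. The remaining 4 members (SEMA3G, PLXNA2, PLXNA4 and PLXNC1) had means of 6.78 to 11.4, under the limit of 14.5 below which no adjusted p was given.

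**Figure D1:**
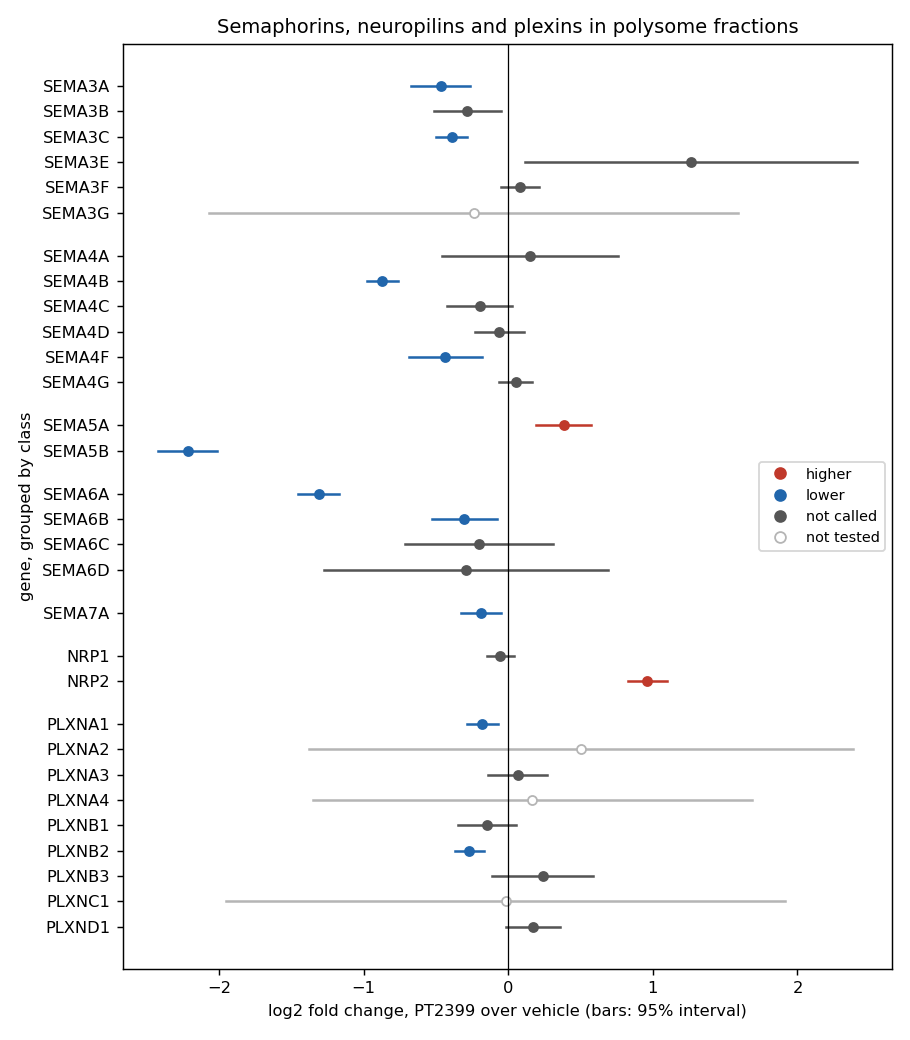
Log2 fold change of PT2399 over vehicle for the 30 members, grouped by class; points are the estimates of the DESeq2 table, bars are 95% intervals, and colour gives the call (adjusted p of at most 0.05). SEMA5B and SEMA6A lie farthest to the left, NRP2 is the called member farthest to the right, and the 4 open points are members with no adjusted p.

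SEMA5B was the called member with the largest change. The gene (ENSG00000082684, chr3:122909082-123028605, hg38) encodes a membrane ligand whose extracellular part carries thrombospondin repeats. Its implied level was 1715 normalized counts in vehicle and 368.2 in PT2399, that is 21.5% of vehicle (95% interval 18.7% to 24.7%). The log2 fold change was -2.22 (SE 0.10; Wald adjusted p = 6.2e-99), and its p-value ranked 36 in the whole table. SEMA5A, the other class 5 ligand, with the same thrombospondin repeats, moved the opposite way. Its implied level was 821.1 in vehicle and 1072 in PT2399, a rise of 0.38 (SE 0.10) in log2 units (Wald adjusted p = 6.6e-04). This call was lost with a t distribution with 4 degrees of freedom as the reference (adjusted p = 0.155), as were those of all called members but SEMA5B, SEMA6A, SEMA4B and NRP2. Their 95% intervals, -2.42 to -2.02 for SEMA5B and 0.19 to 0.57 for SEMA5A, did not overlap. The order of the pair by level therefore turned over: per kilobase of transcript SEMA5B made up 83.5% of the class 5 level in vehicle, whereas SEMA5A made up 54.6% of it in PT2399.

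SEMA6A (ENSG00000092421, chr5:116443555-116574823) fell next most. It is a membrane ligand that in mouse signals through PLXNA2 and PLXNA4. The implied level was 12556.2 normalized counts in vehicle and 5058 in PT2399, 40.3% of vehicle (95% interval 36.5% to 44.5%), with a log2 fold change of -1.31 (SE 0.07) and a Wald adjusted p of 4.1e-70. All 4 class 6 ligands had log2 fold changes below 0, and SEMA6B was the other one called. SEMA6B had an implied 702.3 in vehicle and 568.7 in PT2399, and it fell by 0.30 (SE 0.11; Wald adjusted p = 0.0353). This call was lost when all genes with a p-value were adjusted together (adjusted p = 0.0677). SEMA6C at -0.21 (SE 0.26) and SEMA6D at -0.29 (SE 0.50) were read from means of 96.9 and 36.9 normalized counts and were not called. Per kilobase, SEMA6A made up 89.5% of the class 6 level in vehicle and 80.8% in PT2399. Both plexins that bind SEMA6A in mouse were barely seen in these cells. PLXNA2 had a mean of 9.65 and PLXNA4 one of 11.4 normalized counts, about 57.9 and 68.2 normalized reads in all 6 libraries. Their fold changes of 0.50 (SE 0.96) and 0.17 (SE 0.77) on the log2 scale left room for large moves either way.

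Among the class 4 ligands SEMA4B (ENSG00000185033, chr15:90184920-90229661) had the largest change. Its implied level was 7768 normalized counts in vehicle and 4247 in PT2399, 54.7% of vehicle (95% interval 50.8% to 58.9%). It fell by 0.87 (SE 0.05) in log2 units (Wald adjusted p = 6.4e-55). SEMA4F, a membrane ligand of the same class, fell by 0.44 (SE 0.13; Wald adjusted p = 0.00466) from an implied 952.3 to 703.3. The other 4 class 4 ligands were not called. SEMA4D, also known as CD100 and the classic ligand of PLXNB1, had a log2 fold change of -0.06 (SE 0.09) at implied levels of 1399 and 1340. SEMA4C, a ligand of PLXNB2, had -0.20 (SE 0.12), SEMA4G 0.05 (SE 0.06), and SEMA4A, at a mean of 73.2 normalized counts, 0.15 (SE 0.31). Per kilobase, SEMA4B held 57.9% of the class 4 level in vehicle and 43.8% in PT2399, and it ranked first in both.

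The called ligands with neuropilin partners were class 3 proteins, which are secreted and cleaved by furin-like proteases. SEMA3C, which binds both neuropilins, was the most abundant semaphorin per kilobase, above 96.4% of tested genes with a known length. It went from an implied 26228.6 normalized counts in vehicle to 19993.8 in PT2399, 76.2% of vehicle (95% interval 70.7% to 82.2%), a fall of 0.39 (SE 0.06; Wald adjusted p = 5.1e-11). SEMA3A, the founding axon repellent, which binds NRP1, fell by 0.47 (SE 0.10; Wald adjusted p = 8.6e-05) from an implied 1531 to 1108. The intervals of these 2 falls overlapped, and SEMA3C stood 28.5 times above SEMA3A per kilobase in vehicle and 30.0 times in PT2399. SEMA3B and SEMA3F lie near each other on the short arm of chromosome 3, which is often lost in ccRCC, and neither was called. SEMA3B had -0.28 (SE 0.12; Wald adjusted p = 0.0683) on the log2 scale and SEMA3F, which prefers NRP2, had 0.08 (SE 0.07). PLXNB1, on the same arm, had -0.15 (SE 0.10). SEMA3E, which can bind PLXND1 without a neuropilin, had the highest estimate of any member, 1.26 (SE 0.59), but its mean was 18.3 normalized counts, its 95% interval ran from 0.11 to 2.41, and it was not called (Wald adjusted p = 0.109). SEMA3G, at a mean of 9.49, had -0.24 (SE 0.93).

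SEMA7A, the lipid-anchored ligand of PLXNC1 and of beta 1 integrin, changed little. It fell by 0.19 (SE 0.07; Wald adjusted p = 0.0380) from an implied 2454 to 2157 normalized counts, and the call was lost with all genes adjusted together (adjusted p = 0.0730). PLXNC1 itself had a mean of 6.78 normalized counts, the lowest of the members. The other named receptor, ITGB1, had 97673.2 and rose by 0.17 (SE 0.04; Wald adjusted p = 2.4e-04).

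**Figure D2:**
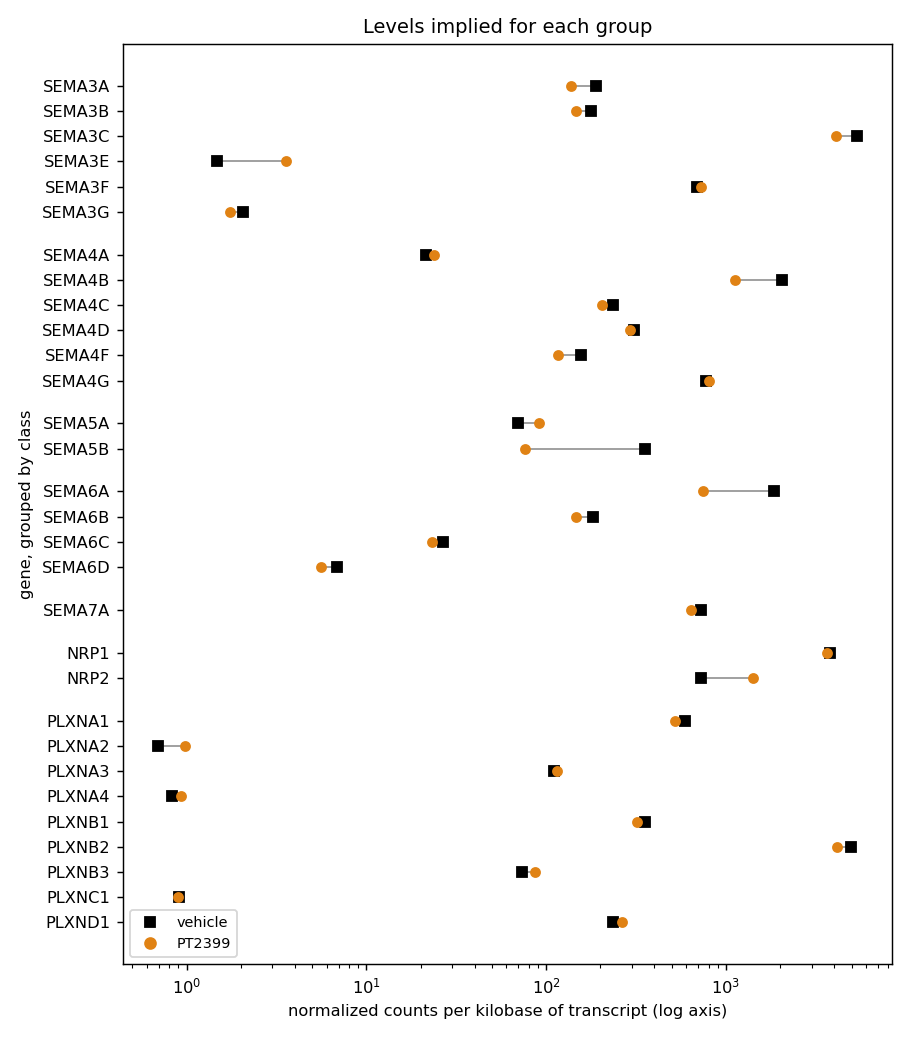
Implied level of each member in vehicle (black squares) and PT2399 (orange circles), as normalized counts per kilobase of the transcript on a log axis. The longest lines among well measured genes belong to SEMA5B, SEMA6A, SEMA4B and NRP2, and 4 members (PLXNA2, PLXNA4, PLXNC1 and SEMA3G) lie at about 2 or less.

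The neuropilins parted. NRP2 (ENSG00000118257, chr2:205682501-205798131), which besides class 3 semaphorins binds VEGFC, had an implied 4836 normalized counts in vehicle and 9417 in PT2399. That is 194.7% of vehicle (95% interval 177.3% to 213.9%), a rise of 0.96 (SE 0.07) in log2 units (Wald adjusted p = 7.7e-42). NRP1 (ENSG00000099250, chr10:33177493-33334667), which binds SEMA3A and VEGFA, had 21390.0 and 20601.8 and was not called, at -0.05 (SE 0.05; 95% interval -0.15 to 0.04). Both genes were well measured and their intervals did not overlap. NRP1 remained the more abundant per kilobase, by 5.21 times in vehicle and 2.58 times in PT2399, so that its share of the neuropilin level was 83.9% and 72.1%. NRP2 was the only receptor among the members with a called rise.

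Plexins showed small differences or none that passed. PLXNB2, a receptor of class 4 semaphorins, was by far the most abundant, with 78.4% of the plexin level per kilobase in vehicle. It fell by 0.27 (SE 0.05; Wald adjusted p = 1.1e-06), from an implied 31795.6 to 26394.7 normalized counts. PLXNA1, a partner of NRP1 in class 3 signalling, fell by 0.18 (SE 0.06; Wald adjusted p = 0.00656), from 5512 to 4862. The intervals of both overlapped. PLXND1, the receptor of SEMA3E, had 0.17 (SE 0.09), PLXNA3 had 0.07 (SE 0.10) and PLXNB3, a receptor of SEMA5A, had 0.24 (SE 0.18), and none of these was called. Of the 6 plexins with an adjusted p, 2 were lower (33.3%, against 11.7% of all tested genes) and 4 were not called.

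By ligand class, the implied level per kilobase summed over members was 79.5% of vehicle for class 3, 72.3% for class 4, 39.5% for class 5, 44.6% for class 6 and 87.9% for SEMA7A. Summed over all 19 semaphorins it was 71.3% of vehicle, and 67.9% without SEMA3C. The same sum was 85.8% of vehicle for the 9 plexins and 112.2% for the neuropilins. These sums are weighted by the most abundant genes and have no error, because the spread between libraries was not at hand.

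**Figure D3:**
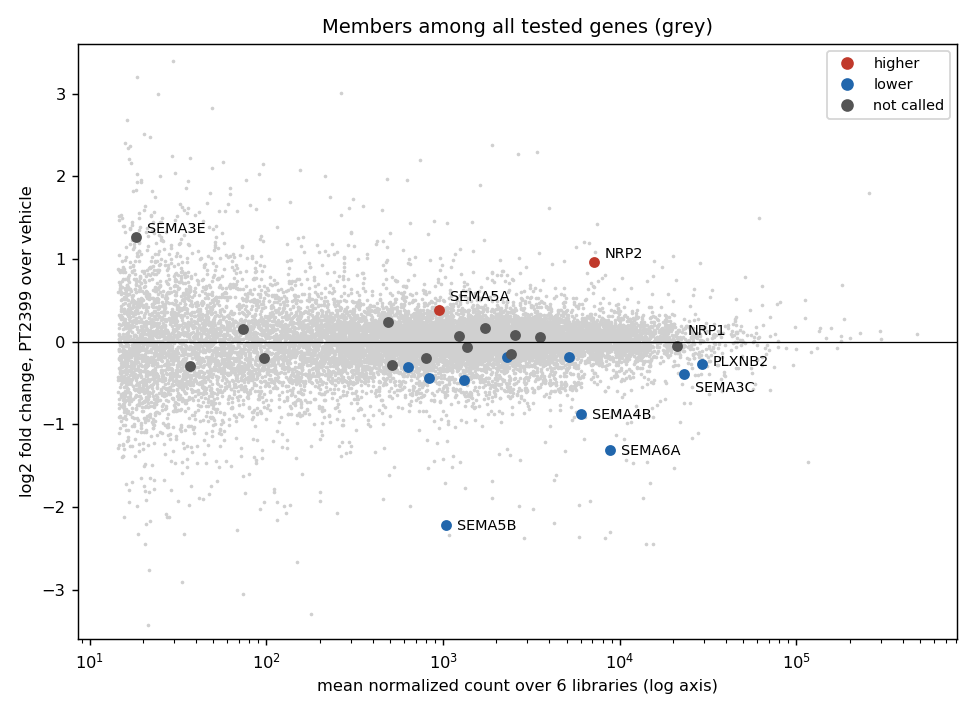
Mean normalized count over 6 libraries (log axis) against the log2 fold change of PT2399 over vehicle for the 26 tested members (coloured by call) over all 15634 tested genes (grey; 9 genes lie beyond the vertical axis). SEMA5B, SEMA6A and SEMA4B sit below most grey points at similar counts and NRP2 above most, though some grey genes there lie farther out. SEMA3E lies where low counts spread the estimates widely.

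HIF proteins bind DNA at sites with the core letters ACGTG or GCGTG, so the bases before the start sites were searched for these letters on either strand. The letters ACGTG also lie within CACGTG, the site of other factors of the same family. RefSeq start sites (GRCh38.p14) were at hand for 26 of the 30 members, with 47 starts in all. SEMA3A, SEMA6A and SEMA6B, all called lower, and NRP1 had no start site at hand and were not searched. At least 1 match lay in the 250 bases before 31.9% of these starts, against 43.2% of the 35116 starts of all genes. By gene, 38.5% of the 26 members and 47.4% of all 27305 genes had a match at 1 start or more. Of the 9 called members with a start in that table only SEMA7A (11.1%) had a match, at a second start and not at the one used by its reference transcript. The sequences before the reference starts are shown for SEMA5B and SEMA4B, which fell, and for NRP2, which rose, as those with the largest called changes among members in the table. No match lay in any of them. The SEMA5B stretch (chr3:123027879-123028013, minus strand) is the part of its window found in no spliced transcript of the gene, and it lies within the gene's span, since another start lies farther upstream. The SEMA4B window is chr15:90201080-90201329 (plus strand) and the NRP2 window chr2:205682251-205682500 (plus strand). The SEMA7A line (chr15:74433882-74433910, minus strand) has its match in capitals. It lies upstream of the second start but downstream of the reference start, inside the gene, and 215 of the 250 bases of that window were found in a transcript of SEMA7A. Each is written from 5′ to 3′ on the strand of the gene. More distant sites were not searched.
SEMA5B: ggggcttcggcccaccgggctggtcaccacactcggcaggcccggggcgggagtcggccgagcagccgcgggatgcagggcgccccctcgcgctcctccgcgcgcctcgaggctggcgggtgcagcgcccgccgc
SEMA4B: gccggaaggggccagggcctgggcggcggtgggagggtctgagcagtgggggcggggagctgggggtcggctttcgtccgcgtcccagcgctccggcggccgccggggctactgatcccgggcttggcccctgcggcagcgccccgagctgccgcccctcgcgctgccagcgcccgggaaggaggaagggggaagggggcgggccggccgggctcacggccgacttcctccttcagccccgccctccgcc
NRP2: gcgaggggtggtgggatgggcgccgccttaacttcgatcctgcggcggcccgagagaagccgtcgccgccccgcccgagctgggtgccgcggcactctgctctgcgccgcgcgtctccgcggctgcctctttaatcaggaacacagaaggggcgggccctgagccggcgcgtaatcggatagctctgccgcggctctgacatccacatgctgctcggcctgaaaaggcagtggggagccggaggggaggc
SEMA7A: tcctccgcccggACGTGccgcccccagcg
The printed stretches of SEMA5B, SEMA4B and NRP2 are rich in G and C, at 81.5%, 79.2% and 70.0%, and hold 20, 29 and 29 CpG dinucleotides.

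Overlapping transcripts were few in the table. The libraries were made with a stranded kit, but the sources used here do not say whether reads were counted by strand; without it, reads of a gene and of its antisense partner cannot be told apart. SEMA6A-AS1, which overlaps SEMA6A, had a mean of 16.98 normalized counts against 8807 for SEMA6A and was not called at 0.63 (SE 0.63). SEMA3F-AS1 had 17.8 against 2562 for SEMA3F and was not called at 0.47 (SE 0.73). SEMA4G overlaps MRPL43 (mean 2148) and SEMA4D overlaps SECISBP2 (mean 1480), at levels near their own of 3541 and 1370, and none of these 4 genes was called. PLXNC1, at a mean of 6.78, overlaps CEP83, which had 1087 and was not called at -0.21 (SE 0.11). PLXNA3, at 1226, overlaps LAGE3, which had 204 and was not called at 0.06 (SE 0.22).

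A list of 65 partner genes chosen by role held 55 tested genes, of which 19 were higher, 7 lower and 29 not called. These are 34.5% higher and 12.7% lower, against the 11.3% and 11.7% of all tested genes, with a median log2 fold change of 0.13 against 0.00. In the more abundant background (mean count 100 or above), a level that some partners did not reach, the shares were 13.7% and 14.1%. The list was drawn up with earlier results of these data known, so its shares are descriptive, and an excess was not tested. The same limit holds for the classes of partners given below.

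Co-receptors supplied 5 of the rises. Of 16 listed, 12 were tested, 5 were higher (41.7%, against 11.3% of all tested genes) and 7 were not called. L1CAM, an adhesion molecule that joins NRP1 in the SEMA3A receptor, rose by 1.03 (SE 0.13; Wald adjusted p = 4.7e-14). Its relatives NRCAM, linked to NRP2, and CHL1 rose by 0.42 (SE 0.05) and 0.91 (SE 0.32), the latter at a mean of 176.3 normalized counts. ITGA1, the integrin partner of ITGB1, rose by 0.56 (SE 0.12). MET, a receptor kinase that can join B plexins, had a mean of 47934.7 and a log2 fold change of 0.01 (SE 0.05), and ERBB2, another such kinase, had 0.01 (SE 0.07), with neither called. PTK7 at -0.25 (SE 0.21), SDC3 at -0.13 (SE 0.06), CD72 at 0.63 (SE 0.59), HAVCR2 at 0.24 (SE 0.54) and LRIG1 at 0.65 (SE 0.62) were not called either. KDR, FLT1 and FLT4, the VEGF receptors that neuropilins serve in endothelium, had means of 0.31 to 0.79 normalized counts, and MST1R had 6.61, all too low for an adjusted p.

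The other ligands of the neuropilins split. VEGFA, which competes for NRP1, fell by 1.47 (SE 0.05; Wald adjusted p = 3.2e-221), to 36.2% of vehicle. VEGFC, a ligand of NRP2, rose by 0.43 (SE 0.10; Wald adjusted p = 2.1e-04). VEGFB at -0.26 (SE 0.22) and PGF at 0.71 (SE 0.52) were not called. Among 5 tested proteases that cleave semaphorins or their receptors, 3 were lower (60%, against 11.7% of all tested genes). These 3 are named here after their values were seen. PCSK5 fell by 0.32 (SE 0.05), FURIN by 0.22 (SE 0.07) and ADAM10 by 0.17 (SE 0.06), with Wald adjusted p-values of 2.8e-08, 0.0119 and 0.0178. The calls of FURIN and ADAM10 were lost at an adjusted p of 0.01. PCSK7, at 0.21 (SE 0.09), and ADAM17, at -0.02 (SE 0.05), were not called.

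Of 34 tested effectors downstream of plexins 13 were higher, 3 lower and 18 not called. These are 38.2% higher and 8.82% lower, against 11.3% and 11.7% of all tested genes. The largest rises were MICALL2, a relative of the actin oxidase MICAL, by 0.65 (SE 0.13), the kinase FYN by 0.51 (SE 0.12), RRAS2, a GTPase of the R-Ras kind, by 0.45 (SE 0.07), and RND3, a small GTPase, by 0.33 (SE 0.05). The falls were MICAL3 by 0.31 (SE 0.05), ARHGAP35, a GTPase-activating protein, by 0.25 (SE 0.05), and DPYSL2, which encodes the collapsin response mediator CRMP2, by 0.24 (SE 0.05). MICALL2 reached 156.6% of vehicle and MICAL3 80.5%, the widest of these values.

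**Figure D4:**
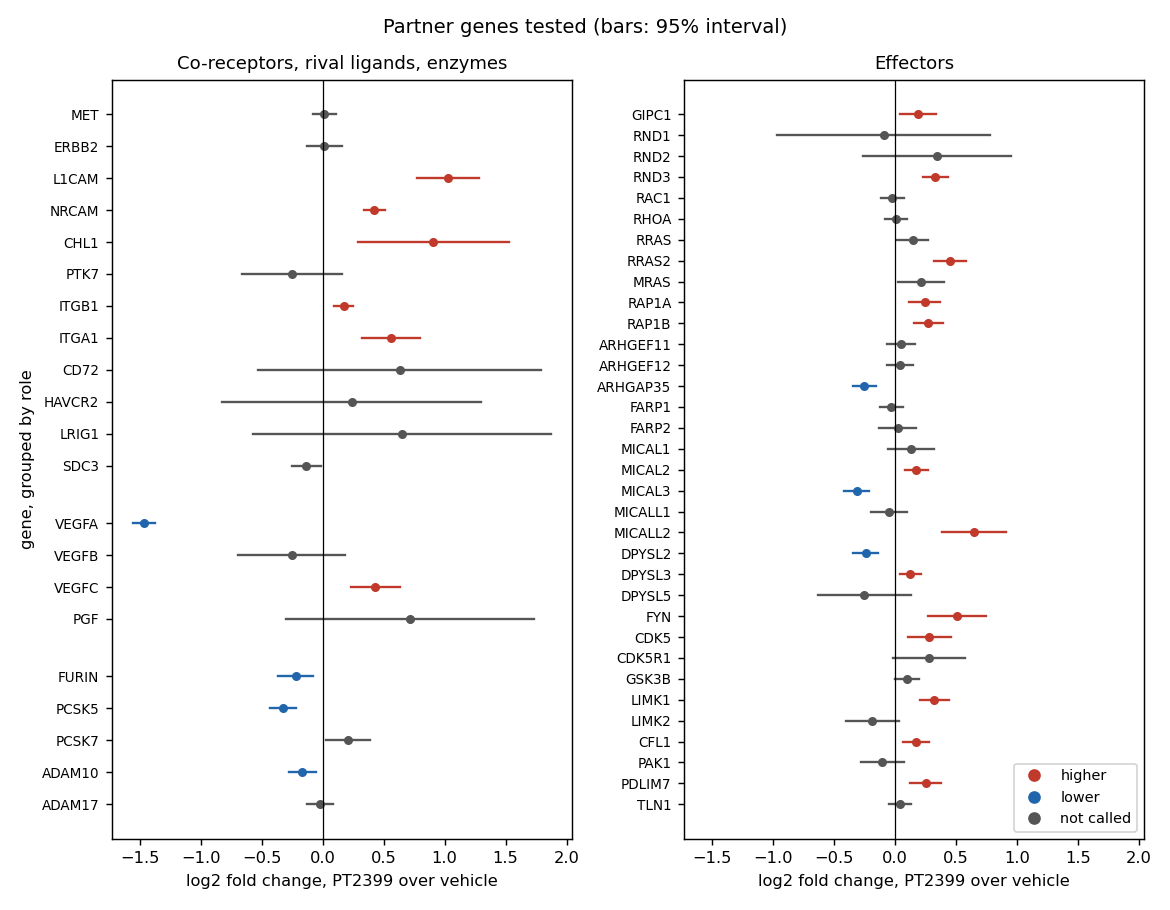
Log2 fold change of PT2399 over vehicle with 95% intervals for the 55 tested partner genes, with co-receptors, rival neuropilin ligands and proteases on the left and effectors on the right, coloured by call. VEGFA lies far to the left at -1.47, L1CAM is the called gene farthest to the right at 1.03, and the effectors lie between MICAL3 at -0.31 and MICALL2 at 0.65.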

How the data were processed

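Polysome-associated RNA was measured in 3 PT2399 and 3 vehicle libraries of OSRC-2 cells, grouped by the sample titles; the dose is 2 mM in one label but 2 µM in the protocol and in the paper, and 2 µM was taken. Per the labels, the authors aligned reads to hg38 with STAR 2.7.3a, quantified them with Salmon and ran DESeq2 1.22.1. The deposited mean normalized count is a signal over 6 libraries scaled by the authors' size factors. The deposited log2 fold change and its SE are the authors' unshrunken estimates, and the deposited p-value and adjusted p-value come from the authors' Wald test. These columns, the authors' own comparison, are what the table holds beside annotation; they were described, not refitted. P-values recomputed from the fold change and its SE, and adjusted p-values recomputed from those p-values, differed from the deposited ones by less than rounding.

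Computed here were 95% intervals (log2 fold change ± 1.96 SE), percent of vehicle (2 to the power of the log2 fold change), group levels (average equal to the mean, ratio equal to the fold change) and levels per kilobase of the GENCODE MANE Select transcript, known for 30 members; the isoform in use is unknown. Steps were tested on simulated data. Size factors came from 1307 genes with a lone read. Positions, promoters and gene types are from RefSeq (GRCh38.p14). Members and partner lists were chosen with earlier results of these data known. Every member is named, partners by role, and effectors as up to 4 largest called rises and falls with a mean of at least 100. Alternatives were an adjusted p of 0.01, adjustment over all, over abundant or over protein-coding genes, a t reference with 4 degrees of freedom, centring on the median, and intervals beyond 1.2-fold. Scripts ran on Python 3.11.15 with scipy 1.17.1, matplotlib 3.10.9, numpy 2.4.6 and pandas 2.3.3.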

Additional observations from a re-analysis of the deposited data

How the results depend on the processing

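Of the 12 called members, NRP2, SEMA4B, SEMA5B and SEMA6A were called under all 7 alternatives, none of which refits the fold changes, so that they bear on calls and not on directions. With the Wald score referred to a t distribution with 4 degrees of freedom, a stricter reference for 6 libraries, 1 member was higher and 3 were lower, SEMA3C (adjusted p = 0.0618), PLXNB2 (0.0959), SEMA3A (0.129), SEMA5A (0.155), SEMA4F (0.191), PLXNA1 (0.199), SEMA6B (0.261) and SEMA7A (0.266) lost their calls, and of the partner genes 1 was higher and 1 lower; 322 of 15634 genes (2.06%) were called in that setting. With the 95% interval required to lie beyond a 1.2-fold change, 1 member was higher and 4 were lower (SEMA3C besides SEMA4B, SEMA5B and SEMA6A). In that setting 7 partner genes were higher and 1 lower, and 1214 of 15634 genes (7.77%) were called. SEMA6B and SEMA7A also lost their calls at an adjusted p of 0.01 and with all genes adjusted together. Adjustment over protein-coding genes, over genes with a mean of at least 100, and centring on the median changed no call of a member. The second of these held 22 members and the others 26. Centring took the partner genes called higher from 19 to 18, as did adjusting all genes together. No paired analysis was possible because the table holds no values per library; for the same reason leaving out each replicate was not run, and the spread between single libraries, batches and outlying libraries could not be looked at. Low counts limited SEMA3E, SEMA3G, SEMA6D, PLXNA2, PLXNA4 and PLXNC1, whose 95% intervals reach a log2 change of 1 or more in at least 1 direction.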
